A study of Arabidopsis thaliana with 7 samples.

Results

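UDP-glycosyltransferases of the UGT71 to UGT92 families were compared between Arabidopsis thaliana seedlings carrying 35S:MYB106VP16 and wild-type seedlings. Members were the genes whose RefSeq symbol or synonym is UGT71 to UGT92 followed by a letter and digits, leaving aside UGT74B1, UGT74C1, UGT75C1, UGT78D2 and UGT79B1. The RefSeq table named 61 such genes, of which 60 had a probe, among 25347 named genes with a probe. Of these members 56 were tested, among 20509 genes tested in all. UGT genes that the table names in another way are not analysed here.

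Total RNA of whole seedlings, Columbia-0 and 3 weeks old, was hybridised to 7 single-colour Agilent arrays, 4 of 35S:MYB106VP16 and 3 of wild type. MYB106 is a MIXTA-like MYB factor of the epidermis, joined here to the viral VP16 activator and expressed from 35S, a promoter active in most plant tissues. Both groups grew on MS agar with sucrose in long days, and the transgenic line or lines are not described in the labels. Each extraction pooled several seedlings of a plate, and nothing says that extractions came from separate cultures, so the p-values cover the spread among these arrays, which may be technical.

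UDP-glycosyltransferases move a sugar from a UDP-sugar to a small acceptor such as a hormone, a phenolic compound or a foreign chemical. The added sugar usually makes the acceptor more soluble and less active and lets it be stored in the vacuole. Several members conjugate salicylate, auxin, cytokinins, abscisic acid or brassinosteroids, while the UGT80 members act on membrane sterols.

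Values are relative signals, the processed spot signal over the 75th percentile of its array, and levels are compared between arrays for 1 gene only, never between genes. A gene was called where its limma p, adjusted over all genes tested, was below 0.05. Changes are 35S:MYB106VP16 over wild type. MYB106 itself had 8.48, 9.8, 11.1 and 5.91 in 35S:MYB106VP16, against 0.173, 0.138 and 0.188 in wild type (log2 5.70 ± 0.22 SE, limma adjusted p = 2.74e-05), and its probes do not separate transgene from endogenous gene. Each slide held 1 genotype, so slide and genotype cannot be told apart. In whole seedlings, fewer cells of a type and less RNA per cell cannot be told apart either. Of 7 leaf markers 2 were lower and none higher, with summed relative signals of 362 to 452 in 35S:MYB106VP16 and 426 to 457 in wild type. Of 10 root markers 4 were higher and 1 lower, with sums of 4.04 to 5.48 in 35S:MYB106VP16 and 4.15 to 4.75 in wild type. Of 5 flower markers with a probe 1 was higher, with sums of 1.34 to 2.24 in 35S:MYB106VP16 and 0.897 to 2.01 in wild type. Of 6 pollen markers 2 were higher and 4 too dim to test, VGD1 and AGP11 on every array, with sums of 0.0388 to 0.0637 in 35S:MYB106VP16 and 0.0225 to 0.0378 in wild type. Among all genes tested, 28.1% were called higher and 24.8% lower. What part these organs have in the changes below was not tested.

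More members were higher than lower in 35S:MYB106VP16. Of the 56 tested, 21 were called higher, 8 lower and 27 not called. The share called was 51.8% of members and 52.9% of all genes tested, so members changed about as often as other genes. Calls to higher were 37.5% of members against 28.1% of all genes, and calls to lower 14.3% against 24.8%. Changes of at least 2-fold were called in 14.3% of members against 10.5% of all genes: 7 members upward (12.5% against 5.77%) and 1 downward (1.79% against 4.72%). The median log2 change was 0.27 over members and 0.02 over all genes. The groups did not overlap in the 29 called members and overlapped in the other 27, so 51.8% of members had separate groups, against 57.6% of all genes. The transgenic arrays lay above in 21 members, where 30.4% of all genes did, and below in 8, where 27.2% of all genes did.

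The split between higher and lower depends on the scaling. Members called higher and lower numbered 24 and 5 with median scaling and 26 and 3 in the authors' series table. They numbered 7 and 23 with scaling to the spike-in transcripts well above background on every array. Higher calls were 72.4% of called members here, 82.8% with median scaling, 89.7% in the authors' table and 23.3% with spike-ins. Among all called genes they were 53.2% here, 66.6% with median scaling, 76.2% in the authors' table and 8.62% with spike-ins. Over all genes the median log2 change was 0.02 here, 0.14 with median scaling, 0.23 in the authors' table and -0.54 with spike-ins. These scalings shift all genes of an array alike, so the changes below are to be read relative to other genes.

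**Figure D1:**
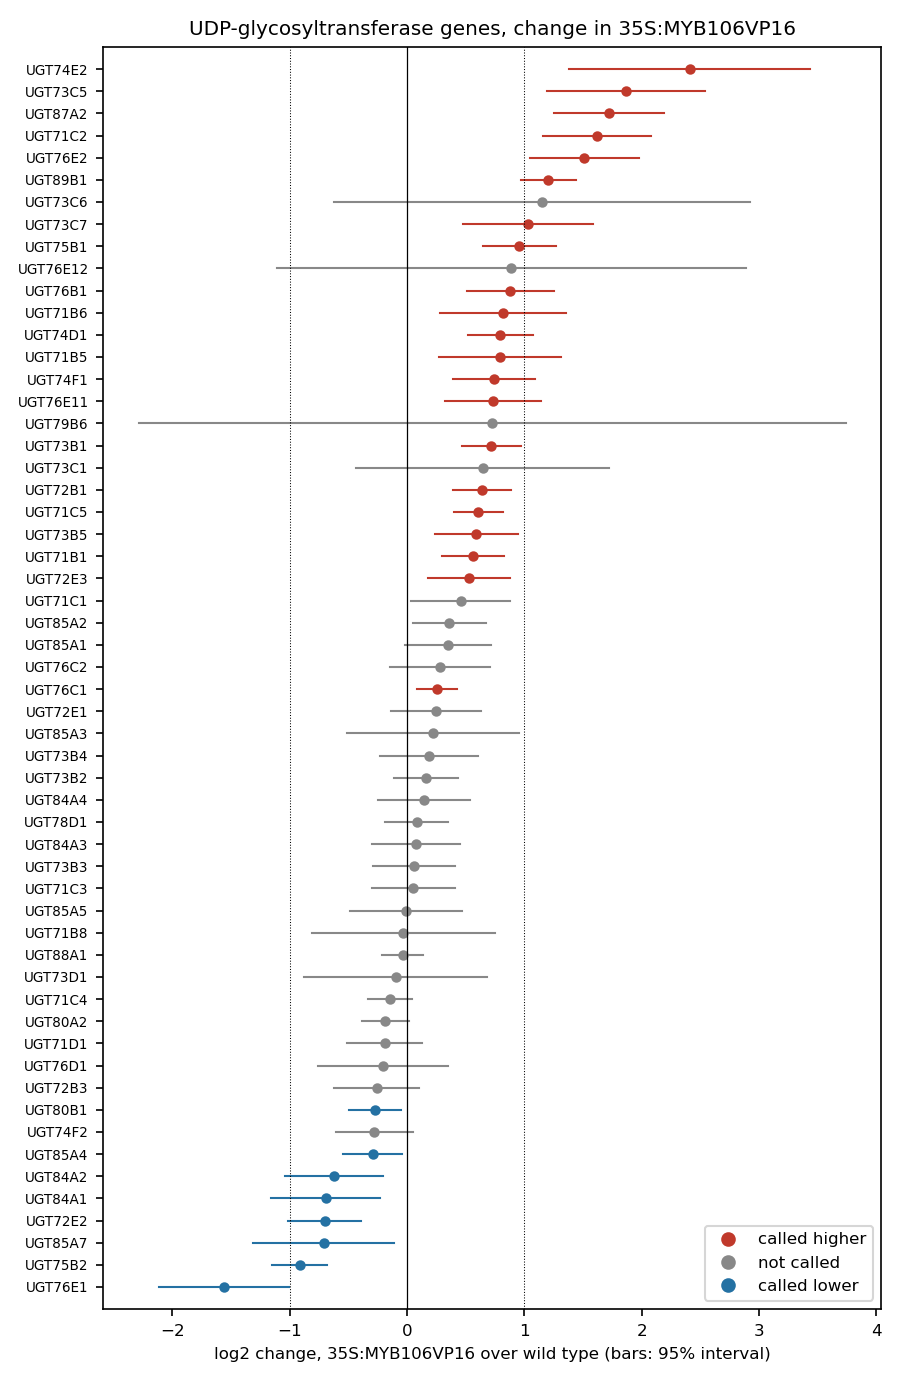
Log2 change of each of the 56 tested members in 35S:MYB106VP16 over wild type (horizontal axis), ordered by size, with its 95% interval from limma as a bar; dotted lines mark 2-fold. UGT74E2 stands at the top with 2.41 and UGT76E1 at the bottom with -1.56, while UGT79B6, UGT76E12 and UGT73C6 have the widest bars.

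The 2 largest rises were in UGT74E2 and UGT73C5, genes tied to auxin, stress and brassinosteroids. Of the 7 members called at least 2-fold higher, 4 had no listed role. UGT74E2, which glucosylates the auxin precursor indole-3-butyric acid, had relative signals of 2.61, 4.23, 1.11 and 2.69 in 35S:MYB106VP16, against 0.358, 0.654 and 0.391 in wild type. Every transgenic array lay above every wild-type array, with 35S:MYB106VP16 replicate 2 highest and replicate 3 lowest. It was 5.32-fold higher (log2 2.41 ± 0.44 SE, limma adjusted p = 0.00335). UGT73C5, also called DOGT1, glucosylates brassinosteroids and the fungal toxin deoxynivalenol. Its signals were 1.99, 3.39, 1.51 and 2.6 in 35S:MYB106VP16, against 0.496, 0.803 and 0.605 in wild type. The groups did not overlap, and the same 2 transgenic replicates were highest and lowest. It was 3.65-fold higher (log2 1.87 ± 0.29 SE, limma adjusted p = 0.00168), and its dimmer probe was called too, at log2 2.74.

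UGT87A2, which affects flowering time, had 5.46, 4.56, 6.98 and 6.68 in 35S:MYB106VP16, against 1.45, 2.29 and 1.68 in wild type. All transgenic arrays were well above the wild-type ones, by 3.29-fold in the mean (log2 1.72 ± 0.20 SE, limma adjusted p = 0.000581). UGT71C2 had 0.899, 1.13, 1.42 and 0.981 in 35S:MYB106VP16, against 0.344, 0.45 and 0.29 in wild type. It was 3.07-fold higher without overlap (log2 1.62 ± 0.20 SE, limma adjusted p = 0.000679), but its dimmer probe gave log2 0.53 and was not called (limma adjusted p = 0.131). UGT89B1 had 1.61, 1.75, 1.78 and 1.82 in 35S:MYB106VP16, against 0.873, 0.698 and 0.707 in wild type. Its transgenic arrays lay close together and apart from wild type (2.3-fold higher, log2 1.20 ± 0.10 SE, limma adjusted p = 0.000208), and both of its probes were called.

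Members closer to background rose too. UGT76E2 had 0.0695, 0.0902, 0.0579 and 0.0753 in 35S:MYB106VP16, against 0.0263, 0.0318 and 0.0196 in wild type. The groups were separate and the change 2.85-fold (log2 1.51 ± 0.20 SE, limma adjusted p = 0.000898), or 1.82-fold with normexp background correction. UGT73C7, which glucosylates hydroxycinnamic acids, had 0.0616, 0.0714, 0.0687 and 0.123 in 35S:MYB106VP16, against 0.0351, 0.0445 and 0.0357 in wild type. All transgenic arrays were higher, replicate 4 most, and the change was 2.05-fold (log2 1.03 ± 0.24 SE, limma adjusted p = 0.00894), or 1.58-fold with normexp. With spike-in scaling it was not called (log2 0.47, limma adjusted p = 0.0958).

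UGT76E1, which glucosylates 12-hydroxyjasmonate, an inactive form of the wound hormone, fell most. Its signals were 0.00664, 0.00938, 0.00505 and 0.00984 in 35S:MYB106VP16, against 0.0241, 0.0229 and 0.0193 in wild type. All transgenic arrays lay below all wild-type arrays, and 3 of the 4 were well above background. It fell 2.95-fold (log2 -1.56 ± 0.24 SE, limma adjusted p = 0.0016), but with normexp the log2 change was -0.42, still called, so the size of the fall rests on the background correction.

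**Figure D2:**
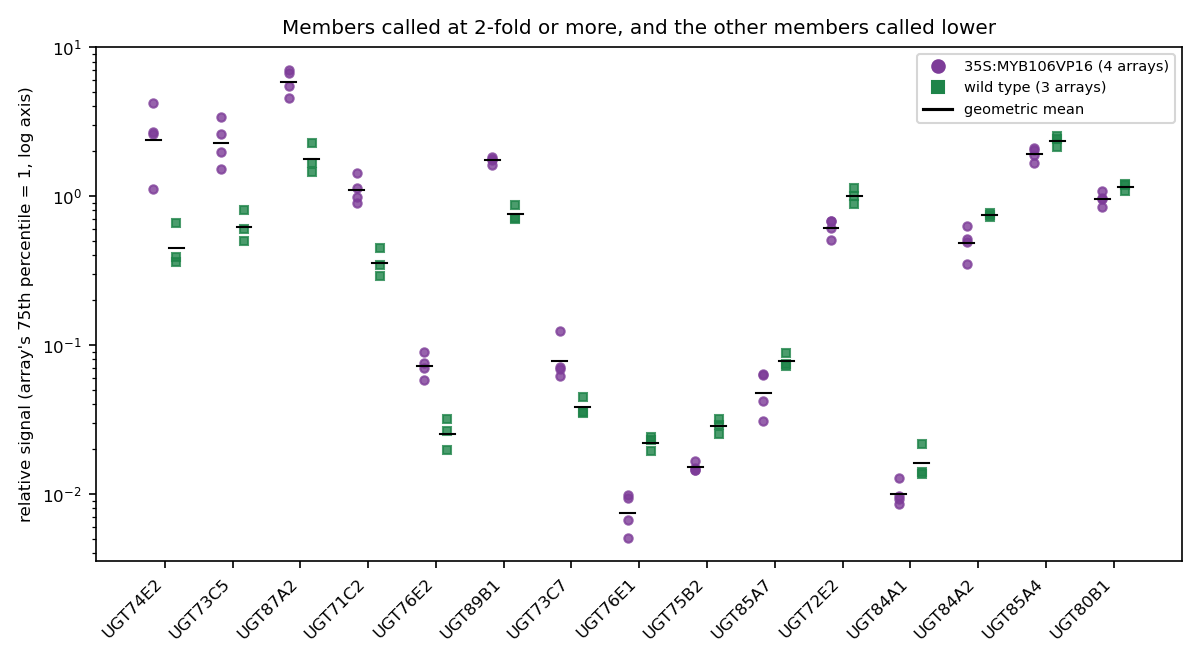
Relative signal on each array (log axis) for the 8 members called at 2-fold or more and the other 7 members called lower; circles are the 4 arrays of 35S:MYB106VP16, squares the 3 of wild type and black lines geometric means. No gene shown has overlapping groups, and the gaps are narrowest in UGT85A4 and UGT80B1 at the right.

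Genes for salicylate and related benzoates went both ways: of 7 members, 3 were higher, 1 lower and 3 not called. The share called, 57.1%, was near the 52.9% of all genes. With spike-in scaling 1 was higher and 4 lower, where 6.08% of all genes were higher and 64.5% lower. UGT75B1, which takes p-aminobenzoate and associates with callose synthase, had 5.52, 4.43, 5.59 and 5.1 in 35S:MYB106VP16, against 2.33, 3.18 and 2.5 in wild type. It was 1.94-fold higher without overlap (log2 0.96 ± 0.13 SE, limma adjusted p = 0.0011), and its dimmer probe was called at log2 0.39. UGT76B1, which conjugates isoleucic acid, salicylate and N-hydroxypipecolic acid, had 1.25, 1.43, 1.62 and 1.8 in 35S:MYB106VP16, against 0.707, 0.987 and 0.789 in wild type. Again the groups were separate, at 1.84-fold higher (log2 0.88 ± 0.16 SE, limma adjusted p = 0.00318). UGT74F1, which forms salicylate glucoside, had 0.148, 0.152, 0.191 and 0.212 in 35S:MYB106VP16, against 0.108, 0.113 and 0.0915 in wild type and was 1.67-fold higher (log2 0.74 ± 0.15 SE, limma adjusted p = 0.00528).

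Their relatives on the list did not follow. UGT75B2 had 0.0144, 0.0145, 0.015 and 0.0167 in 35S:MYB106VP16, against 0.0318, 0.0289 and 0.0252 in wild type. Both groups were tight and apart, and it fell 1.89-fold (log2 -0.92 ± 0.10 SE, limma adjusted p = 0.000481). UGT74F2, which forms the glucose ester of salicylate, had 4.97, 4.25, 5.35 and 5.1 in 35S:MYB106VP16, against 4.97, 7.2 and 5.88 in wild type. Its groups overlap and it was not called (log2 -0.28, 95% interval -0.61 to 0.05). It was called lower without wild type replicate 1 (log2 -0.41, limma adjusted p = 0.0425), with normexp and with spike-in scaling. UGT71C3, which glucosylates methyl salicylate, stood at log2 0.05 (95% interval -0.30 to 0.41) and UGT76D1, for dihydroxybenzoates, at -0.20 (95% interval -0.75 to 0.35), neither called.

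Both tested auxin members were higher, UGT74E2 above and UGT74D1, which acts on indole-3-acetic acid and its oxidised form. Of all genes tested, 28.1% were called higher. UGT74D1 had 2.96, 3.08, 3.74 and 3.94 in 35S:MYB106VP16, against 2.01, 2.03 and 1.85 in wild type. The groups were separate, at 1.74-fold higher (log2 0.80 ± 0.12 SE, limma adjusted p = 0.0015), while its dimmer probe gave log2 0.21 and was not called (limma adjusted p = 0.0674). With spike-in scaling UGT74D1 was not called (limma adjusted p = 0.171). UGT84B1, another auxin enzyme, stayed near background on all 7 arrays.

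Of 3 abscisic acid members 2 were higher, 66.7% called against 52.9% of all genes. With spike-in scaling none was called, where 6.08% of all genes were higher and 64.5% lower. UGT71C5 had 2.49, 2.67, 2.61 and 2.78 in 35S:MYB106VP16, against 1.94, 1.65 and 1.6 in wild type. It was 1.52-fold higher with no overlap (log2 0.61 ± 0.09 SE, limma adjusted p = 0.00134). UGT71B6 had 0.286, 0.222, 0.369 and 0.386 in 35S:MYB106VP16, against 0.137, 0.214 and 0.182 in wild type. The lowest transgenic array lay just above the highest wild-type one. It was 1.77-fold higher (log2 0.82 ± 0.23 SE, limma adjusted p = 0.0194), and was not called without wild type replicate 1 (limma adjusted p = 0.0664) or wild type replicate 3 (limma adjusted p = 0.0503). UGT71B8, well above background on 1 of 4 transgenic and 2 of 3 wild-type arrays, stood at log2 -0.03 (95% interval -0.81 to 0.75).

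Cytokinin members changed little, with 1 of 3 called, 33.3% against 52.9% of all genes. UGT76C1, which forms N-glucosides, had 0.903, 0.933, 0.886 and 0.929 in 35S:MYB106VP16, against 0.825, 0.722 and 0.744 in wild type. The groups were separate but close, and it was 1.2-fold higher (log2 0.26 ± 0.07 SE, limma adjusted p = 0.0196). The call was lost without wild type replicate 2 (limma adjusted p = 0.0835) or wild type replicate 3 (limma adjusted p = 0.0813), and with spike-in scaling the gene was lower. UGT76C2, of the same reaction, stood at log2 0.28 (95% interval -0.15 to 0.71). UGT85A1, which makes zeatin O-glucoside, stood at 0.35 (95% interval -0.02 to 0.71) and was called only when wild type replicate 2 was left out among the single-array omissions (log2 0.54, limma adjusted p = 0.0079). Both were called higher in the authors' series table.

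UGT73C6, a brassinosteroid and flavonol enzyme beside UGT73C5, had 0.0226, 0.0253, 0.00278 and 0.0105 in 35S:MYB106VP16, against 0.00338, 0.00497 and 0.00797 in wild type. The groups overlap through 35S:MYB106VP16 replicate 3, and the log2 change of 1.15 was not called (95% interval -0.62 to 2.93). Without that array it was 1.83 and called (limma adjusted p = 0.0139). None of the 3 tested flavonoid members was called, where 52.9% of all genes were. UGT78D1, a flavonol rhamnosyltransferase, stood at log2 0.08 (95% interval -0.19 to 0.35). UGT79B6, which acts on pollen flavonols, was well above background on 2 transgenic arrays and 1 wild-type array (log2 0.73, 95% interval -2.29 to 3.74). UGT78D3, a flavonol arabinosyltransferase, was well above background on none.

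Phenylpropanoid members were split, with 3 of 9 higher and 3 lower, 66.7% called against 52.9% of all genes. Under spike-in scaling 5 were lower and none higher, where 64.5% of all genes were lower and 6.08% higher. UGT72E2, which glucosylates monolignols, had 0.509, 0.675, 0.612 and 0.678 in 35S:MYB106VP16, against 1.14, 1.0 and 0.88 in wild type. No transgenic array reached wild type, and it fell 1.63-fold (log2 -0.70 ± 0.13 SE, limma adjusted p = 0.00395). Its paralog UGT72E3 had 1.04, 1.11, 1.39 and 1.45 in 35S:MYB106VP16, against 0.959, 0.873 and 0.747 in wild type and was 1.44-fold higher (log2 0.53 ± 0.15 SE, limma adjusted p = 0.0198). That call was lost without wild type replicate 2 (limma adjusted p = 0.0512) or wild type replicate 3 (limma adjusted p = 0.0779), its sign turned with spike-in scaling, and its dimmer probe was not called (log2 0.28). UGT72E1, the third paralog, was not called (log2 0.25, 95% interval -0.14 to 0.63).

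UGT84A1 and UGT84A2 make glucose esters of hydroxycinnamates, and both were lower. UGT84A2, a sinapate glucosyltransferase, had 0.512, 0.49, 0.351 and 0.625 in 35S:MYB106VP16, against 0.773, 0.749 and 0.718 in wild type. The groups were separate and it fell 1.54-fold (log2 -0.62 ± 0.18 SE, limma adjusted p = 0.0218), but leaving out wild type replicate 1, 2 or 3 gave limma adjusted p = 0.0643, 0.0599 and 0.0541. UGT84A1 had 0.0093, 0.00974, 0.0085 and 0.0127 in 35S:MYB106VP16, against 0.0216, 0.0136 and 0.0141 in wild type and fell 1.62-fold (log2 -0.69 ± 0.20 SE, limma adjusted p = 0.0217). It was not called without 35S:MYB106VP16 replicate 3 (limma adjusted p = 0.0503) or wild type replicate 1 (limma adjusted p = 0.0523), nor with normexp (log2 -0.20). Neither gene was called in the authors' series table. Of the same clade, UGT84A3 stood at log2 0.07 and UGT84A4 at 0.15, not called.

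Of 9 members tied to foreign chemicals and stress, 5 were higher and none lower, while spike-in scaling gave 2 higher and 2 lower. Over all genes spike-in scaling gave 6.08% higher and 64.5% lower. The share called, 55.6%, was near the 52.9% of all genes. UGT73B1 had 13.2, 14.2, 15.3 and 14.1 in 35S:MYB106VP16, against 7.6, 9.97 and 8.46 in wild type. The groups lay well apart, at 1.65-fold higher (log2 0.72 ± 0.11 SE, limma adjusted p = 0.00143). UGT72B1, which conjugates chlorinated phenols and anilines, had 1.13, 1.29, 1.45 and 1.36 in 35S:MYB106VP16, against 0.878, 0.883 and 0.757 in wild type. It was 1.56-fold higher without overlap (log2 0.64 ± 0.11 SE, limma adjusted p = 0.00235), though its dimmer probe was not called (log2 0.22). UGT73B5, a redox-responsive gene, had 2.92, 3.03, 3.13 and 4.0 in 35S:MYB106VP16, against 2.1, 2.59 and 1.84 in wild type. The change was 1.51-fold (log2 0.59 ± 0.15 SE, limma adjusted p = 0.0141), lost without wild type replicate 3 (limma adjusted p = 0.0559), and its dimmer probe gave log2 0.14 without a call.

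Of the other UGT73B genes, 3 were not called. UGT73B2 stood at log2 0.16 (95% interval -0.11 to 0.44), UGT73B3 at 0.06 (95% interval -0.29 to 0.41) and UGT73B4 at 0.19 (95% interval -0.23 to 0.60). UGT73C1, which can conjugate the explosive trinitrotoluene, had 0.0263, 0.0121, 0.0116 and 0.0232 in 35S:MYB106VP16, against 0.00692, 0.0216 and 0.00877 in wild type. Its groups overlap and its log2 change was 0.64 (95% interval -0.43 to 1.72).

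Of the sterol glucosyltransferases, which build steryl glucosides of membranes, 1 of 2 was lower, none with median scaling or in the authors' series table, and both with spike-ins. Calls to lower were 24.8% of all genes, or 64.5% with spike-ins. UGT80B1 had 0.953, 1.08, 0.85 and 0.964 in 35S:MYB106VP16, against 1.2, 1.08 and 1.19 in wild type. The groups nearly touch at 35S:MYB106VP16 replicate 2 and wild type replicate 2. It fell 1.21-fold (log2 -0.27 ± 0.10 SE, limma adjusted p = 0.046) and lost its call when any array but 35S:MYB106VP16 replicate 2 was left out, with limma adjusted p of 0.0625 to 0.137. Its log2 change was -0.15 with median scaling and -0.06 in the authors' series table. Its dimmer probes were lower by more, at log2 -1.12 and -1.83, both called. UGT80A2 was not called by its brightest probe (log2 -0.18, 95% interval -0.38 to 0.02), while another probe was called lower at -0.35 and its dimmest stood at 0.01.

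**Figure D3:**
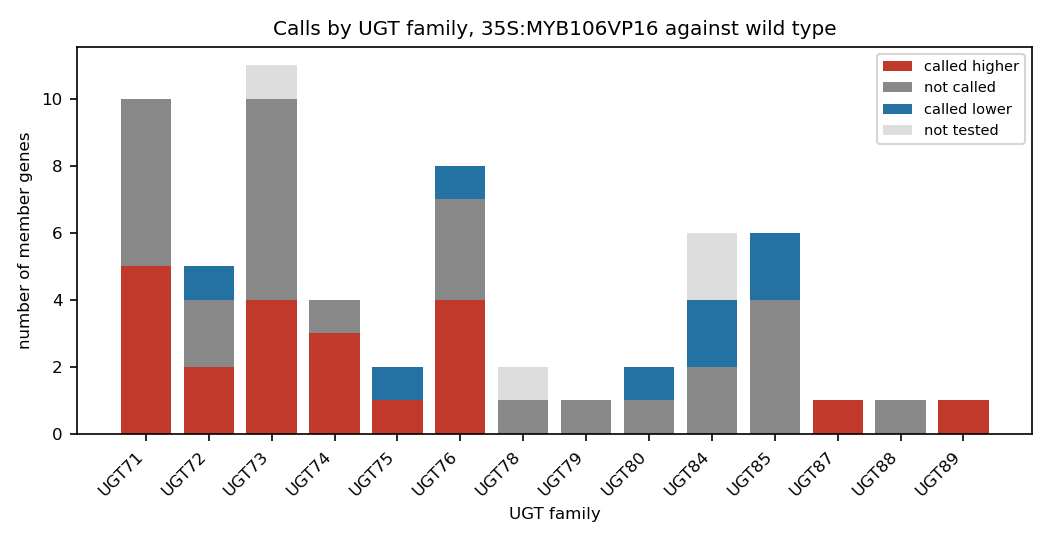
Number of member genes (vertical axis) in each UGT family (horizontal axis) by call in 35S:MYB106VP16 against wild type, scaled to the 75th percentile. UGT71, UGT73 and UGT74 hold 5, 4 and 3 members called higher and none lower, which under spike-in scaling become 1 higher with 3, 2 and 1 lower. Of all genes tested, 28.1% were called higher and 24.8% lower, against 6.08% and 64.5% with spike-ins.

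Calls were also counted by family. UGT71 had 5 of 10 higher and none lower, against 1 and 3 with spike-ins, and quantile normalization added 1 lower. UGT73 had 4 of 10 tested higher and none lower, against 1 and 2 with spike-ins. UGT74 had 3 of 4 higher and none lower, against 1 and 1. UGT76 had 4 of 8 higher and 1 lower, against 1 and 3. In UGT84 none was higher and 2 of 4 tested were lower, 4 with spike-ins and none in the authors' series table. The share called was 50% in UGT71, 40% in UGT73, 75% in UGT74, 62.5% in UGT76 and 50% in UGT84, against 52.9% of all genes. Of all genes, 28.1% were higher and 24.8% lower, against 6.08% and 64.5% with spike-ins. Differences between families were not tested.

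UGT85 had 2 of 6 members lower and none higher, but 2 higher and none lower with median scaling or the authors' series table. The share called was 33.3%, against 52.9% of all genes. UGT85A7 had 0.0423, 0.031, 0.0627 and 0.0636 in 35S:MYB106VP16, against 0.0883, 0.0727 and 0.0745 in wild type and fell 1.64-fold (log2 -0.71 ± 0.26 SE, limma adjusted p = 0.0497). UGT85A4 had 1.88, 2.05, 2.11 and 1.68 in 35S:MYB106VP16, against 2.13, 2.42 and 2.53 in wild type and fell 1.23-fold (log2 -0.29 ± 0.11 SE, limma adjusted p = 0.0499). Both sit at the edge of the threshold. UGT85A7 was called without 35S:MYB106VP16 replicate 3 or 4 and lost its call without any other array (limma adjusted p = 0.0579 to 0.139). UGT85A4 was called without 35S:MYB106VP16 replicate 3 or wild type replicate 1 and lost its call without any other array (limma adjusted p = 0.0572 to 0.169). UGT85A2 fell just outside (log2 0.36, limma adjusted p = 0.0534) and was called higher without 35S:MYB106VP16 replicate 1 (limma adjusted p = 0.0183).

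The remaining called members had smaller changes. UGT71B1 had 1.31 to 1.75 in 35S:MYB106VP16, against 1.04 to 1.12 in wild type (1.47-fold higher, limma adjusted p = 0.00512), but its other probes gave log2 0.41 and 0.06, not called. UGT76E11 had 0.128 to 0.197 in 35S:MYB106VP16, against 0.0862 to 0.105 in wild type (1.66-fold higher, limma adjusted p = 0.0105). UGT71B5 had 0.0103 to 0.0138 in 35S:MYB106VP16, against 0.00476 to 0.00924 in wild type (1.73-fold higher, limma adjusted p = 0.0197), near background on the wild-type arrays, of which 2 of 3 were well above it. It was not called with normexp (log2 0.15), without wild type replicate 2 (limma adjusted p = 0.0596) or without wild type replicate 3 (limma adjusted p = 0.0583).

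Other members without a listed role were not called, and those named next were picked after their values were seen. UGT76E12 had 0.027, 0.0177, 0.0287 and 0.0336 in 35S:MYB106VP16, against 0.00441, 0.0713 and 0.00883 in wild type. Wild type replicate 2 stood far above the other wild-type arrays, and the log2 change of 0.89 was not called (95% interval -1.11 to 2.89). Without that array it was 2.06 and called (limma adjusted p = 0.00544). UGT71C1 (log2 0.46) was called without 35S:MYB106VP16 replicate 1 (limma adjusted p = 0.0208). UGT71D1 (log2 -0.19) was called without 35S:MYB106VP16 replicate 3 (limma adjusted p = 0.0255), and UGT72B3 (log2 -0.26) without 35S:MYB106VP16 replicate 4 (limma adjusted p = 0.0237). UGT71C4, UGT73D1, UGT85A3, UGT85A5 and UGT88A1 lay between log2 -0.15 and 0.22. UGT73C2 and UGT84B2 were too dim to test.

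Many members lie side by side, as UGT genes are known to multiply by tandem duplication. With at most 5 other genes between members, 40 of the 60 fell into 15 runs and 20 stood outside. In 2 runs members were called in opposite directions, where 28.1% of all genes tested were called higher and 24.8% lower. Whether neighbouring members differ more often than other genes was not tested. UGT76E1 and UGT76E2, adjacent on chromosome 5, stood at log2 -1.56 and 1.51. UGT75B2 and UGT75B1, near each other on chromosome 1, stood at -0.92 and 0.96. Both pairs kept their opposite calls under all 4 other scalings and with each array left out. Close paralogs can share signal on an array, and as probe sequences were not used here this was not tested.

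In several other runs 1 gene was called, where 52.9% of all genes tested were called. The runs with 1 call named next are examples. On chromosome 3, UGT71B1 and UGT71B6 were both called higher, in a run with UGT71B8, which was not called. On chromosome 2, UGT73C5 was called in a run with UGT73C1, UGT73C2 and UGT73C6, and UGT71C2 was called between UGT71D1 and UGT71C1. On chromosome 1, UGT71C5 was called and its neighbours UGT71C4 and UGT71C3 were not. On chromosome 4, UGT73B1 was called and UGT73B2 and UGT73B3 were not.

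**Figure D4:**
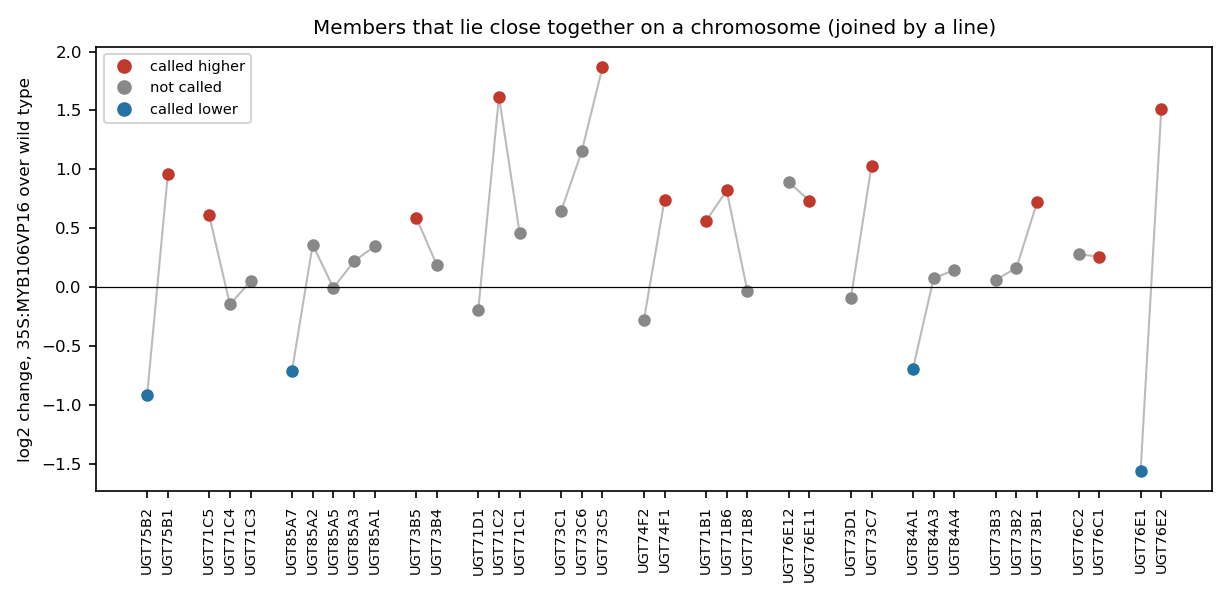
Log2 change in 35S:MYB106VP16 over wild type (vertical axis) for tested members that lie close together, in gene order and joined by a line within a run. The lines of UGT75B2 and UGT75B1 at the left and of UGT76E1 and UGT76E2 at the right run from a gene called lower to a gene called higher.

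Several probes were tested in 18 members, and none of these had probes with opposite calls. Among all genes with several tested probes such calls were also rare, in 304 of 6161. In 7 of the 18 the brightest probe was called and another was not: UGT71B1, UGT71C2, UGT72B1, UGT72E3, UGT73B5, UGT74D1 and UGT76B1. In UGT80A2, UGT85A2 and UGT88A1 a dimmer probe was called and the brightest was not. When every probe was fitted, the brightest probe of UGT85A4 was not called (limma adjusted p = 0.0526).

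Among genes that supply UDP-sugars, more were lower than higher. Of 27 tested, 14 were lower and 3 higher, 63.0% called against 52.9% of all genes, with a median log2 change of -0.27. Over all genes 24.8% were lower and 28.1% higher. The number lower was 11 with median scaling and also without wild type replicate 2 or 3, 5 in the authors' series table and 23 with spike-ins. Calls to lower over all genes were 18.5% with median scaling, 11.1% in the authors' series table and 64.5% with spike-ins. SUS1, a sucrose synthase that splits sucrose into UDP-glucose and fructose, had 1.01, 0.86, 0.936 and 1.04 in 35S:MYB106VP16, against 2.2, 2.36 and 2.38 in wild type. The gap was far wider than either group (2.41-fold lower, log2 -1.27 ± 0.09 SE, limma adjusted p = 0.000125). SUS4, of the same family, had 0.977, 0.884, 0.544 and 1.01 in 35S:MYB106VP16, against 1.88, 2.23 and 2.15 in wild type (2.51-fold lower, log2 -1.33 ± 0.22 SE, limma adjusted p = 0.00214). UGE5, an epimerase of UDP-glucose and UDP-galactose, was 2.04-fold higher (log2 1.03 ± 0.15 SE, limma adjusted p = 0.00155).

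Tau glutathione transferases, which join glutathione to foreign chemicals, went both ways, with 9 of 26 tested higher and 7 lower, 61.5% called against 52.9% of all genes. Median scaling gave 14 higher and 5 lower, spike-in scaling 4 higher and 10 lower, and leaving out wild type replicate 3 gave 4 higher and 7 lower. Over all genes, median scaling gave 36.9% higher and 18.5% lower, and spike-in scaling 6.08% and 64.5%. GSTU20 had 3.14, 1.76, 4.6 and 3.51 in 35S:MYB106VP16, against 16.8, 15.6 and 15.2 in wild type and fell 5.16-fold (log2 -2.37 ± 0.29 SE, limma adjusted p = 0.000701). GSTU4 had 0.156, 0.166, 0.199 and 0.259 in 35S:MYB106VP16, against 0.0334, 0.094 and 0.0409 in wild type and was 3.79-fold higher (log2 1.92 ± 0.36 SE, limma adjusted p = 0.0037). GSTU3 had 0.0422, 0.0618, 0.0619 and 0.275 in 35S:MYB106VP16, against 0.0578, 0.00103 and 0.00121 in wild type. Its groups overlap, 1 of 3 wild-type arrays was well above background, and the call (log2 4.29 ± 1.43 SE, limma adjusted p = 0.0379) was lost when any array but wild type replicate 1 was left out (limma adjusted p = 0.0519 to 0.128).

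Of 13 ABCC transporters, which carry conjugates into the vacuole, 3 were higher and 1 lower, 30.8% called against 52.9% of all genes. ABCC3 had 1.1, 1.01, 0.618 and 0.947 in 35S:MYB106VP16, against 0.232, 0.231 and 0.185 in wild type. All transgenic arrays stood far above wild type (4.18-fold higher, log2 2.06 ± 0.20 SE, limma adjusted p = 0.000342). ABCC8 and ABCC2 were 1.35-fold and 1.24-fold higher (limma adjusted p = 0.0307 and 0.0204), and the sign of both turned with spike-in scaling. ABCC8 was not called without 35S:MYB106VP16 replicate 1 (limma adjusted p = 0.0559), wild type replicate 1 (limma adjusted p = 0.0803) or wild type replicate 3 (limma adjusted p = 0.11). ABCC2 was not called without wild type replicate 3 (limma adjusted p = 0.0876). The lower gene was ABCC14, named after its value was seen (1.17-fold lower, limma adjusted p = 0.041), and it was not called under several alternatives.

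**Figure D5:**
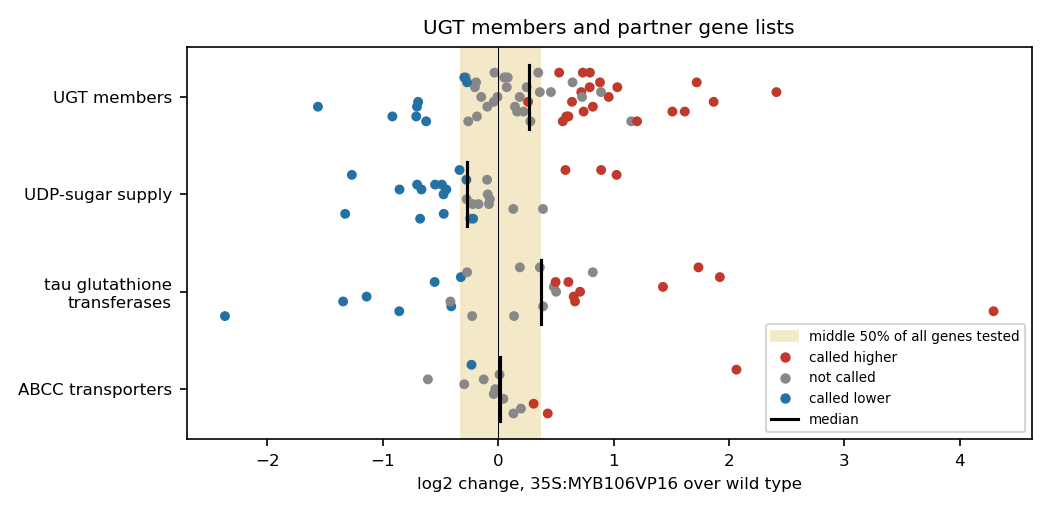
Log2 change in 35S:MYB106VP16 over wild type (horizontal axis) for the members and 3 partner lists, 1 point per gene coloured by call, with the median as a black line; the vertical spread of points has no meaning. The band holds the middle 50% of all genes tested, and the median is 0.27 for the members and -0.27 for the UDP-sugar genes.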

How the data were processed

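Spot intensity came from Agilent Feature Extraction 9.1.3.1, per the file headers and the submitters' processing notes. Per the file headers, the deposited intensity is background-subtracted and spatially detrended, with the lowest signals set to small positive values. No spot was saturated. The authors' deposited series table holds the same intensity over 1 constant per group, 1042 for 35S:MYB106VP16 and 1238 for wild type, linear and not centred, with column medians of 0.331 to 0.438. The basis of those constants is unknown here.

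Outlier spots were dropped, spots of each probe averaged (43603 probes), and log2 values set relative to each array's 75th percentile. RefSeq accessions without versions named 34185 probes (table of TAIR10.1). Each gene was represented by its brightest probe on average, and tested if well above background on 3 or more arrays. Testing used limma 3.58.1 in R 4.3.3 fitting genotype alone, with Benjamini-Hochberg adjustment, after checks on simulated data. The simulated data had few changed genes and no slide effect, so these checks cannot speak to a slide effect in the calls here. The number of arrays limits precision.

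Members, role lists and partner lists were chosen with earlier results of these data known. The text names called members of at least 2-fold, members of role lists, and the 3 called genes of largest change in each partner list; other names are marked or complete the count. Alternatives were normexp (offset 50, median spot signals), quantile, median and spike-in scaling, the authors' table, other filters, the mean over probes, a test against 1.5-fold, leaving out arrays, and a replicate block.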

Additional observations from a re-analysis of the deposited data

Results flagged for a closer look

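In 2 of 56 tested members a single transgenic array stood far from the other 3, where chance alone gives about 1 group in 20. For UGT73B3 this was 35S:MYB106VP16 replicate 4, with a relative signal of 4.41 while the others had 3.35 to 3.51. For UGT76C2 it was 35S:MYB106VP16 replicate 3, with 1.63 while the others had 1.01 to 1.08. Neither gene was called. The 3 wild-type arrays are too few for this check.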

How the results depend on the processing

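Over all alternatives, members gave 946 values: 818 left the call as it was, 87 lost a call and 32 gained one. The other 9 changed sign and were called before or after. Sign changes of members called neither before nor after are among the 818. An example is UGT88A1, at log2 -0.04 here, 0.08 with median scaling and 0.17 in the authors' series table. Of the 29 called members, 7 were called under every alternative that tested them (6 higher, 1 lower), and 19 whichever array was left out. All 9 counted changes of sign came with spike-in scaling, where log2 changes were -0.51 for UGT71C3, -0.48 for UGT78D1, -0.49 for UGT84A3, -0.42 for UGT84A4, -0.50 for UGT73B3, -0.40 for UGT73B2, -0.31 for UGT76C1, -0.0057 for UGT71B1 and -0.037 for UGT72E3. ABCC8 stood at -0.14 and ABCC2 at -0.26 there. Spike-in, median and the authors' scaling move all genes of an array together, and the test against 1.5-fold asks for larger changes; for the other alternatives the cause was not tested.

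Spike-in scaling gave 1247 genes higher and 13226 lower (503 and 3950 at 2-fold or more), 7 and 23 members (4 and 6 at 2-fold or more), 3 and 16 members of role lists, 1 and 23 UDP-sugar genes, 1 and 10 ABCC genes, and 4 tau glutathione transferases higher. The authors' series table gave 2277 genes lower, 1852 higher and 608 lower at 2-fold or more, 3 members lower, 12 members higher at 2-fold or more, 3 members of role lists lower, 5 UDP-sugar genes lower, 14 tau glutathione transferases higher and 4 lower, and 5 ABCC genes higher and 0 lower. Median scaling gave 5 members lower, 14 tau glutathione transferases higher, and 5 ABCC genes higher and 0 lower.

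The test against 1.5-fold gave 795 genes higher and 710 lower (734 higher at 2-fold or more), 6 and 1 members, 2 and 1 members of role lists, 0 and 1 UDP-sugar genes, 2 and 3 tau glutathione transferases and 1 and 0 ABCC genes. Normexp gave 657 genes higher and 558 lower at 2-fold or more, 0 members lower at 2-fold or more, and 2 ABCC genes lower. Without a filter 5 members and 0 ABCC genes were lower. Detection on every array gave 0 members lower at 2-fold or more, since UGT76E1 was then not tested, and the mean over probes gave 2, with 0 ABCC genes lower.

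With 1 array left out, 16 to 23 members were higher and 4 to 7 lower: 5 lower without 35S:MYB106VP16 replicate 1 or wild type replicate 1, and 4 without wild type replicate 2 or 3. At 2-fold or more 1 to 2 were lower, with 2 without wild type replicate 3. Tau glutathione transferases higher were 4 to 10, ABCC genes higher 1 to 3 and lower 0 to 1, the lowest of the first 2 without wild type replicate 3. Deviations of same-numbered arrays correlated at 0.18, -0.03 and -0.08, and those of other pairs at -0.31 to 0.17. With so few arrays, these values cannot decide whether the numbers pair the arrays. With the replicate block 17 members were higher and 7 lower, and ABCC genes 1 and 0. As no wild-type array shares its number, 35S:MYB106VP16 replicate 4 adds nothing to the change under the block. UGT74E2 had log2 2.35 both with the block and without that array. Slide could not be a block, as no slide held both genotypes. Signal near background limits UGT76E1, UGT73C6, UGT71B5, UGT71B8, UGT76E12 and UGT79B6.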
